A study of Mus musculus with 21 samples.

Results

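The nuclear-encoded subunits of the mitochondrial respiratory chain and of ATP synthase were followed in the epididymal fat of male C57BL/6J mice. Members were the genes named by a single-symbol array probe whose symbol carries a Nduf, Sdh, Uqcr, Cyc1, Cox or Atp5 subunit name. Symbols with the pseudogene mark -ps were left out. This gave 53 of the 16248 genes tested: 23 of complex I, 3 of complex II, 5 of complex III, 6 of complex IV and 16 of ATP synthase. The symbol rule used no measured value, and where several probes stood for a gene (6 genes) the brightest was taken. Of 82 reference genes whose symbols fit the same pattern, 29 were not analysed here, so each complex was seen in part.

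Each of 7 groups had 3 arrays, 21 in all. The H_FMG group ate a high-fat diet (40% of energy from fat) with 0.9% fermented mixed grain, and the L_FMG group the same diet with 0.3% of it. The SMG group received that diet with 0.3% steamed grain and the BC group with 0.3% Bacillus coagulans. The RMG group also ate the high-fat diet (40% of energy from fat), and RMG is a code whose supplement the protocols do not describe. The HFD group ate the high-fat diet alone, and the ND group ate a diet with 10% of energy from fat. Mice arrived at an age of 4 weeks, acclimated for 1 week and ate these diets for 12 weeks. The labels state 10 mice per group for BC, SMG, HFD and ND. They do not say whether an array held 1 mouse or a pool, so p-values measure the spread between these samples.

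The respiratory chain passes electrons from NADH, through complex I, and from succinate, through complex II, to coenzyme Q, complex III, cytochrome c and complex IV, which reduces oxygen. Complexes I, III and IV pump protons, and ATP synthase uses the returning protons to make ATP. Most subunits are encoded in the nucleus and join a few encoded in mitochondrial DNA. White fat holds fewer mitochondria than brown fat, where uncoupling turns the proton gradient into heat.

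Promoter windows, from 250 bases before to 50 after the annotated start, are shown for the 3 genes that passed the test against ND and for the other 2 genes of ATP synthase subunit c. They are RefSeq windows on build GRCm38.p6, written 5′ to 3′ on the gene's strand. Capitals mark matches, on either strand, to letters searched for factors that are known to act on respiratory genes: TGCGCA and GCATGCG for NRF1, CCGGAAG for the ETS factor GABP, AAGGTCA for ERR and ATGGCGG for YY1, with TATAAA as the TATA box.
Ndufb3, chr1:58586147-58586446, plus strand: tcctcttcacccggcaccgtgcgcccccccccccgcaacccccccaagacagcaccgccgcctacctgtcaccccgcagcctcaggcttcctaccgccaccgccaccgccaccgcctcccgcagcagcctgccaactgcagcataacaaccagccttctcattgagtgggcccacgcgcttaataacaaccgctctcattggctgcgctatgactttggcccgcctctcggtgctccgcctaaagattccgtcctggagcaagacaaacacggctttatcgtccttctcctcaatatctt
Atp5e, chr2:174464052-174464351, minus strand: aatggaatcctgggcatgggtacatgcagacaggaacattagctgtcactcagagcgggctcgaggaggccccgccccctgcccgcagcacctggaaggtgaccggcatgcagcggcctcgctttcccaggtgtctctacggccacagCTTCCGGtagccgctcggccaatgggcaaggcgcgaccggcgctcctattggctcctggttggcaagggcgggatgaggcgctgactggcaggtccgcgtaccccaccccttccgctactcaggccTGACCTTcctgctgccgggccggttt
Atp5g1, chr11:96075582-96075881, minus strand: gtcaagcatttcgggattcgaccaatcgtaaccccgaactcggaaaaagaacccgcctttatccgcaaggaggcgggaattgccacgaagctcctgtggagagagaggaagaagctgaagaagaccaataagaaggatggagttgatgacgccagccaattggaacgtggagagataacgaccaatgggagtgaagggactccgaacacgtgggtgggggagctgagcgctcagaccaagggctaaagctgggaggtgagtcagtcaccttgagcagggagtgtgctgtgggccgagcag
Atp5g2, chr15:102670998-102671297, minus strand: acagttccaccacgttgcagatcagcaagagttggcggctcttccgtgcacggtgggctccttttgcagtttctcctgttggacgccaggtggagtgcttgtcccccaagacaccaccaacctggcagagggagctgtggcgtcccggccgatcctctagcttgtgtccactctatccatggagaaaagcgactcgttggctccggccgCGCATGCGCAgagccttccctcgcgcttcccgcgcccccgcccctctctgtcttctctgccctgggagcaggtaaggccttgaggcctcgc
Atp5g3, chr2:73911277-73911576, minus strand: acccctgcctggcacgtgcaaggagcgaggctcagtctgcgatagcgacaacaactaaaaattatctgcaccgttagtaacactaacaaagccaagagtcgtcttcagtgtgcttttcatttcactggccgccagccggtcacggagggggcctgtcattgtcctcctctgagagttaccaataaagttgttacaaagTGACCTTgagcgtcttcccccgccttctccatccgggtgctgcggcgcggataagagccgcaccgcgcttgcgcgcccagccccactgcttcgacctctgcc

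None of the 6 motifs lay in the Ndufb3 and Atp5g1 windows. The Atp5e window held the ETS letters at -102 to -96 and the ERR letters at 24 to 30, both on the opposite strand, counted from the start site. In Atp5g2 the NRF1 letters overlapped one another between -41 and -32, and Atp5g3 held the ERR letters at -52 to -46. Windows were given for 44 of the 53 genes, 48 windows in all. ETS letters were in 27.1% of these, against 11.6% of the 15134 windows of tested genes and 8.86% of all 32851 windows. TGCGCA was in 22.9%, against 9.87% and 7.76%, and GCATGCG in 18.8%, against 4.59% and 3.58%. YY1 letters were in 14.6%, against 5.06% and 4.05%, ERR letters in 8.33%, against 4.06% and 4.72%, and TATAAA in 10.4%, against 11.8% and 13.6%. A match describes letters and is no binding site.

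Array values were the authors' deposited log2 levels, whose array medians lay between 4.23 and 4.39. The fat cell markers Fabp4, with levels of 11.98 to 12.32, and Adipoq, with 8.68 to 9.80, were far above these medians in every array. Of the 53 genes, 47 were brighter than the median gene. Array 9 of the ND group stood apart. It gave the lowest level of the 21 arrays for 24 of the 53 genes (45.3%), against 18.5% of all genes tested. For the 53 genes, the main results against ND are therefore given with and without it. Those of the other gene and marker lists are given with all arrays only. Array 9 was singled out by the levels of these same genes, so results without it are a description and no separate evidence.

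Levels differed little between groups for most subunits. The range of the 7 group means had a median of 0.24 on the log2 scale over the 53 genes and 0.33 over all genes tested, and the median SD within groups was 0.16 and 0.18. The smallest range among the subunits was 0.10, for Uqcrfs1, the Rieske iron-sulfur protein of complex III. The largest was 0.70, for Ndufb3, an accessory subunit of the complex I membrane arm. A moderated F test over the 7 groups (limma, Benjamini-Hochberg adjusted) called 0 of the 53, against 6.47 percent of all genes. Ndufb3 came closest, with an adjusted p of 0.0523, and Atp5g1 followed at 0.118. Among the 53 genes, 5 had an unadjusted p under 0.05, against 18.6 percent of all genes.

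Group means of the brightest and dimmest probe of each complex show the scale of these ranges. In complex I, Ndufb9 lay between 9.60 in L_FMG and 9.84 in BC, and Ndufs5 between 3.76 in SMG and 4.11 in ND. In complex II, Sdha, the flavoprotein that oxidises succinate, lay between 9.10 in HFD and 9.21 in ND, and Sdhb, its iron-sulfur partner, between 6.89 in H_FMG and 7.08 in ND. Both had their highest mean in ND. In complex III, Uqcrh lay between 6.63 in HFD and 6.73 in SMG, and Uqcrq between 5.12 in RMG and 5.39 in ND. In complex IV, Cox6a1 lay between 11.22 in L_FMG and 11.33 in BC, and Cox7b2, known as a testis form, between 1.55 in HFD and 1.74 in RMG. In ATP synthase, Atp5b, the catalytic beta subunit, lay between 10.71 in RMG and 10.87 in BC, and Atp5g1 between 3.80 in L_FMG and 4.33 in ND. BC held the highest group mean for 19 of the 53 genes, against 9.93% of all genes, and the lowest for 0, against 8.86%. L_FMG held the lowest for 19, against 11.5% of all genes, and for 9 without L_FMG array 10, against 15.6%.

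**Figure D1:**
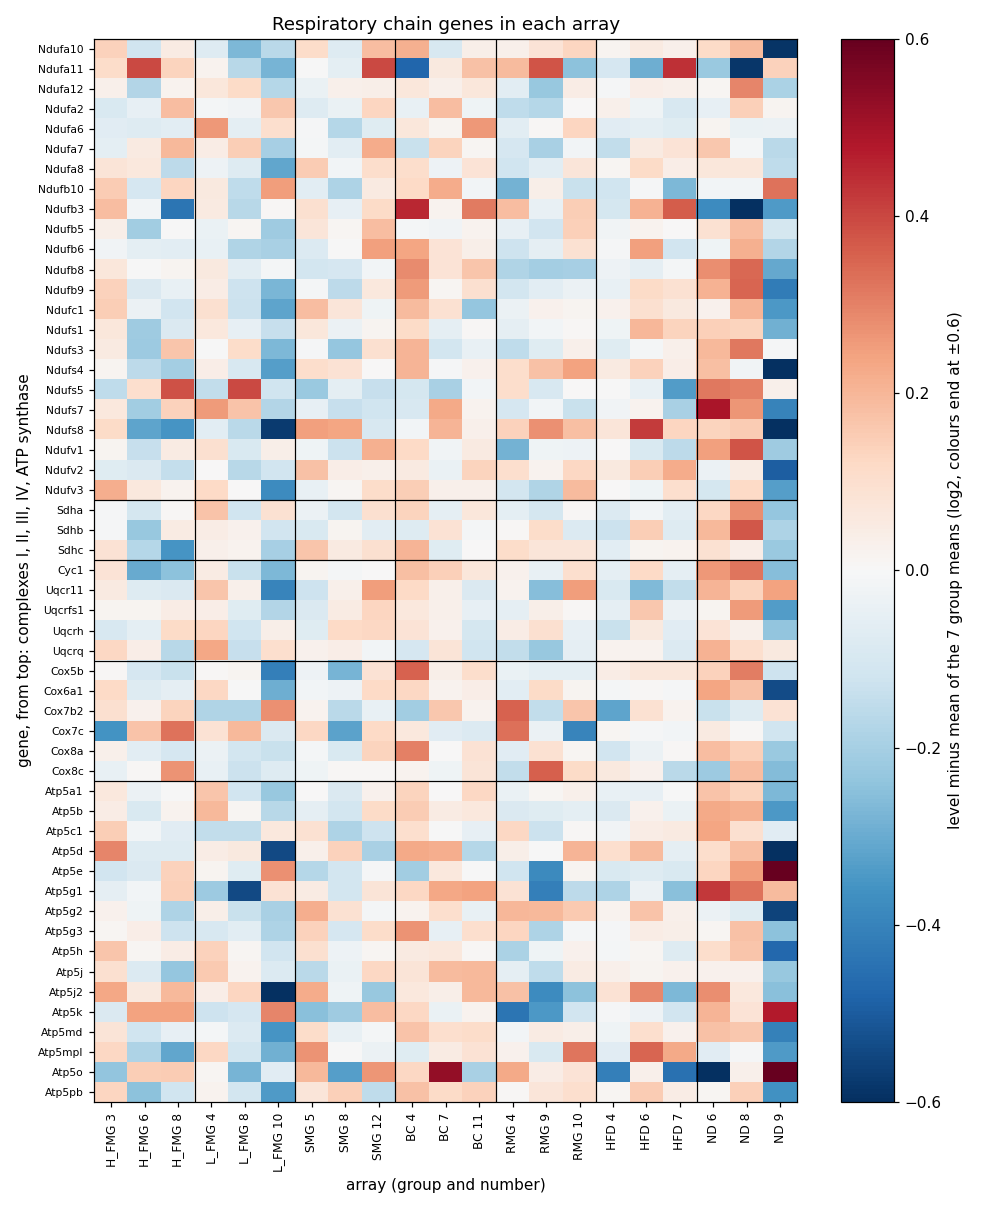
Level of each of the 53 genes (rows, by complex) in each of the 21 arrays (columns, by group), as the difference from the mean of the 7 group means in log2 units, with colours ending at ±0.6. The column of ND array 9 is blue for most genes and red for a few, among them Atp5e, Atp5k, Atp5o and Ndufb10.

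In HFD against ND, few subunits passed the test: 1 gene rose, against 6.54 percent of all genes, and 1 fell, against 2.09 percent. These 2 of 53 genes called (3.77%) stand against 8.63 percent of all genes tested. The median change over the 53 genes was -0.000623, against -0.04 over all genes, with 26 estimates above 0 and 27 below. An unadjusted p under 0.05 was seen for 9 genes (17%), against 25.3 percent of all genes. The 95% interval of the change lay inside ±0.25 for 4 of the 53 genes, inside ±0.5 for 38 and inside ±1 for all 53. Standard errors ran from 0.09 to 0.26. The arrays of the 2 groups did not overlap for 10 genes (18.9%), against 28.7 percent of all genes. HFD was the higher group for 3 of them, against 15.7 percent of all genes, and the lower for 7, against 13 percent. The median change over the 53 genes was -0.105 after quantile normalization and 0.104 with each array centred on its median, which moved the median of all genes by 0.105.

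**Figure D2:**
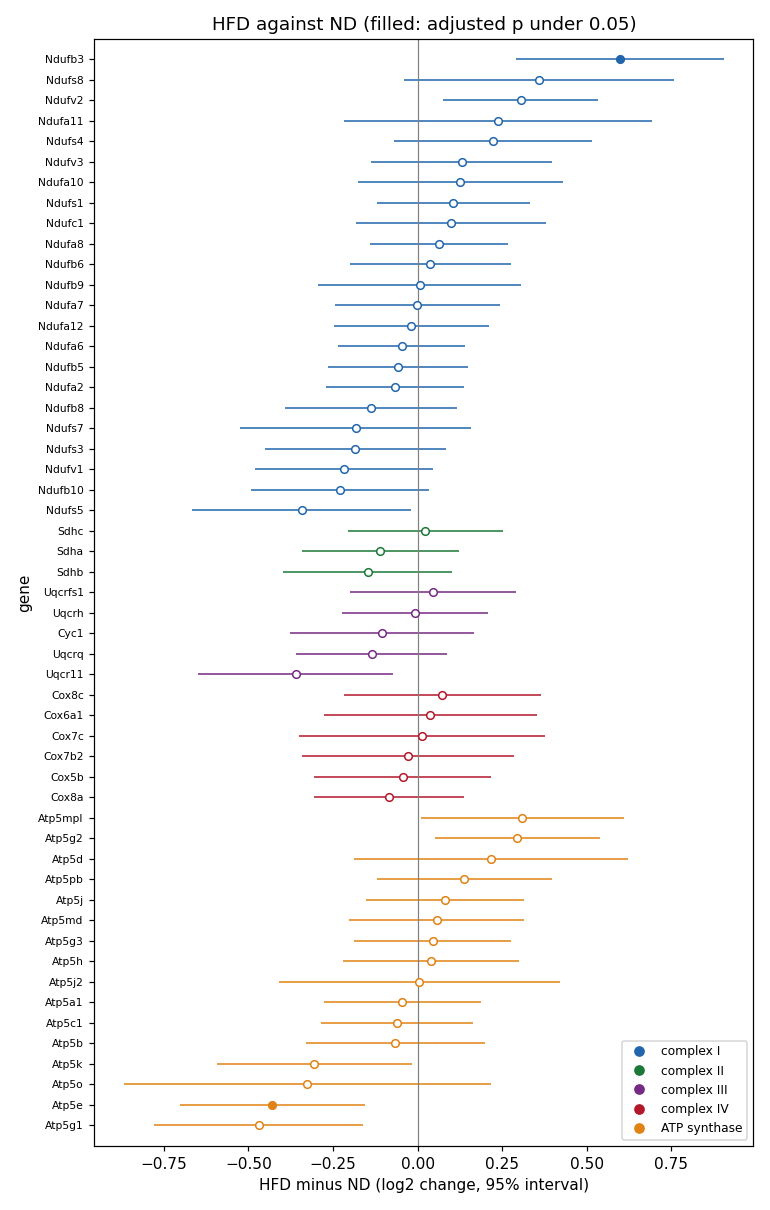
Change of each of the 53 genes (HFD minus ND, log2) with its 95% interval, ordered within each complex and coloured by complex. Filled points passed an adjusted p of 0.05: Ndufb3 at 0.60 and Atp5e at -0.43.

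Ndufb3 had levels of 7.32, 7.63 and 7.79 in HFD, against 7.04, 6.82 and 7.08 in ND. Every HFD array was above every ND array. The change was 0.60 ± 0.15 (SE, n = 3 each; limma, adjusted p = 0.0147). Ndufb3 was no longer called when arrays were quantile normalized (limma, adjusted p = 0.0646), nor when ND array 8 (0.0636), HFD array 6 (0.0731) or HFD array 7 (0.0822) was left out.

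Atp5e, the epsilon subunit of the central stalk of ATP synthase, had levels of 6.36, 6.38 and 6.36 in HFD, against 6.58, 6.71 and 7.10 in ND. All HFD arrays were below all ND arrays, and the highest of the 21 values was that of ND array 9. The change was -0.43 ± 0.13 (SE, n = 3 each; limma, adjusted p = 0.0461). A second probe of Atp5e gave -0.36 ± 0.13 and did not pass over all probes (limma, adjusted p = 0.1). The call on the first probe was lost without any 1 of ND arrays 8 and 9 and HFD arrays 4, 6 and 7, with adjusted p between 0.0612 and 0.19.

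Subunit c forms the rotating proton ring of ATP synthase, and 3 genes encode the same mature protein. Atp5g1 had a mean level of 4.02, below the median gene at 4.725, so it was not tested with dim genes left out. Its levels were 3.84, 3.98 and 3.77 in HFD, against 4.45, 4.35 and 4.21 in ND. The arrays did not overlap, and the change of -0.47 ± 0.15 missed the threshold (limma, adjusted p = 0.0514). It passed without the intensity trend (adjusted p = 0.0457) and with array weights (-0.52, adjusted p = 0.0147). Atp5g2 had levels of 9.58, 9.73 and 9.59 in HFD, against 9.523, 9.485 and 8.999 in ND. Its arrays did not overlap in the other direction, with a change of 0.29 ± 0.12 (limma, adjusted p = 0.117). Without ND array 9 the change in Atp5g2 was 0.13. Its probe lies among probes of another chromosome, and a second probe gave 0.25 ± 0.11. Atp5g3 differed by 0.04 ± 0.11, with overlapping arrays. The difference between the 3 genes was not tested.

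A further 4 genes had non-overlapping arrays and an unadjusted p under 0.05: Ndufv2, a subunit of the NADH-oxidising module, at 0.30 ± 0.11, Uqcr11, a small complex III subunit, at -0.36 ± 0.14, Atp5k, subunit e, at -0.31 ± 0.14, and Ndufs5 at -0.34 ± 0.16. Atp5mpl, whose arrays overlapped, was at 0.31 ± 0.14. None of these passed after adjustment on the deposited values. Without ND array 9 the change was 0.14 in Ndufv2, -0.335 in Uqcr11, -0.19 in Atp5k, -0.44 in Ndufs5 and 0.21 in Atp5mpl. Uqcr11 was called after quantile normalization (-0.45; limma, adjusted p = 0.043) and Ndufv2 with median-centred arrays (0.41; adjusted p = 0.0373). The fixed core subunits had estimates between -0.22 and 0.11. Ndufs1, the largest iron-sulfur subunit of complex I, differed by 0.11 ± 0.11, and Ndufv1, which binds NADH, by -0.22 ± 0.13. Sdha differed by -0.11 ± 0.11 and Sdhb by -0.15 ± 0.12. Cyc1, cytochrome c1 of complex III, differed by -0.11 ± 0.13 and Uqcrfs1 by 0.05 ± 0.12. Cox5b of complex IV, whose probe also lies among those of another chromosome, differed by -0.04 ± 0.13 (0.07 ± 0.24 with its other probe), and Atp5b by -0.07 ± 0.13. None of these 8 passed the test with all arrays weighted equally, while array weights called Ndufv1 (-0.36; limma, adjusted p = 0.0213) and Sdhb (-0.30; adjusted p = 0.0418). With 1 array left out, Sdhb ran from -0.305 without ND array 9 to -0.0249 without ND array 8, and Cyc1 from -0.287 to -5.5e-05 without the same arrays.

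**Figure D3:**
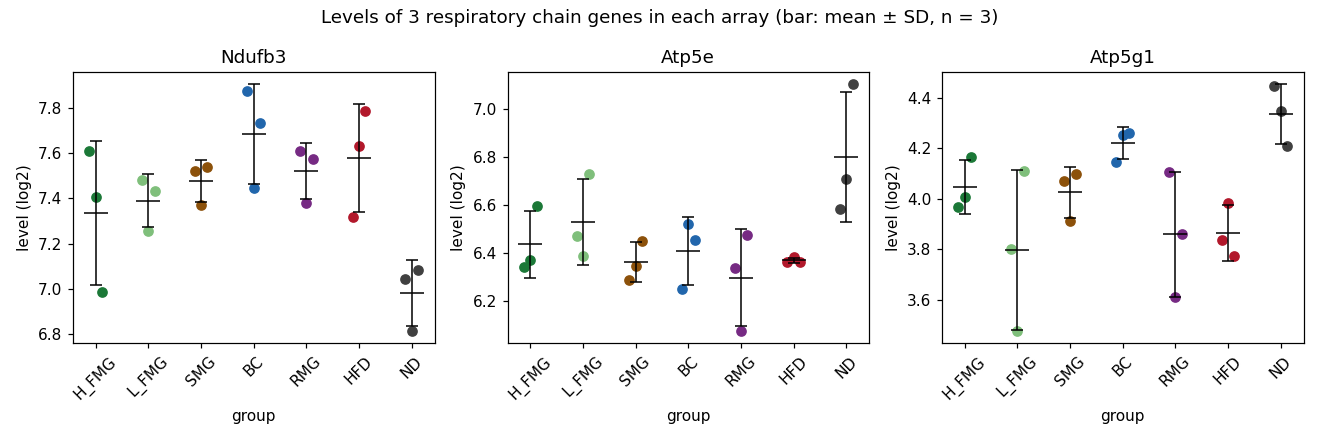
Levels (log2) of Ndufb3, Atp5e and Atp5g1 in each array, by group, with the mean ± SD of 3 arrays. ND arrays are low for Ndufb3 and high for Atp5e and Atp5g1.

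Markers of some cell types moved with the diet. In HFD against ND, 6.54 percent of all genes rose and 2.09 percent fell. Of 14 macrophage markers 13 rose in HFD and 0 fell. The list's position, its mean level minus the mean of the group means, ran from 0.34 to 0.57 in HFD arrays. In ND arrays it ran from -1.13 to -0.38. Of 10 adipocyte markers 4 fell, among them Rbp4, Pck1 and Acvr1c, and that list ran from -0.29 to -0.03 in HFD, against -0.10 to 0.44 in ND. Of 9 fibroblast markers 4 rose, 2 of 9 endothelial markers fell, and 1 of 8 sperm and testis markers (Odf1) and 1 of 3 T cell markers (Il7r) rose. Estimates were above 0 for 8 of 9 fibroblast, 0 of 9 endothelial, 3 of 8 sperm and testis and 1 of 3 T cell markers. None of 7 mesothelial and 8 muscle markers passed. Their part in the subunit values was not tested. In whole tissue, fewer cells of a type and less RNA per cell cannot be told apart.

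The other genes that build, regulate or feed the chain are read against the 8.63 percent of all genes called in HFD against ND. Of these lists, 0 of 12 complex I, 6 complex III, 15 complex IV and 4 ATP synthase assembly factors passed, and 0 of 14 biogenesis regulators, 12 citric acid cycle and pyruvate dehydrogenase genes and 9 coenzyme Q genes. Of 3 complex II assembly factors Sdhaf3 rose by 0.61 ± 0.19 (limma, adjusted p = 0.0472). Among 6 chain genes outside the symbol pattern, Atpif1, the inhibitor of ATP synthase run in reverse, rose by 0.49 ± 0.11 (limma, adjusted p = 0.00718). Mrpl40 was the 1 of 33 large mitochondrial ribosome proteins called, at -0.48 ± 0.12 (limma, adjusted p = 0.0213), while 25 of the 33 estimates were above 0. Of 7 brown and beige fat markers, Cidea fell, at -0.52 ± 0.14 (limma, adjusted p = 0.0213). Its mean levels, 3.98 in HFD and 4.50 in ND, were below the median gene at 4.725. In that list 4 of 7 estimates were above 0, with a median of 0.04.

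The mean of the 6 high-fat groups against ND used the same 3 ND arrays, so it is no separate evidence. It called 3 of 53 genes (5.66%), against 10.1 percent of all genes, of which 7.25 percent rose and 2.89 percent fell. Ndufb3 rose by 0.52 ± 0.11 (limma, adjusted p = 0.00628), Atp5e fell, at -0.40 ± 0.10 (adjusted p = 0.0149), and Atp5g1 fell, at -0.37 ± 0.11 (adjusted p = 0.0436). Leaving out any 1 of 14 of the 21 arrays ended the Atp5g1 call (adjusted p between 0.0515 and 0.148). Ndufb3 lost its call without ND array 8 (0.0598) and Atp5e without ND array 9 (0.151). The median change was 0.0035, against -0.02 over all genes, and 8 genes (15.1%) had an unadjusted p under 0.05, against 26.7 percent. No overlap between high-fat and ND arrays was seen for 0 of the 53 genes, close to the share of 1.53 percent of all genes. In the same comparison Fmc1, an ATP synthase assembly factor, fell, at -0.42 ± 0.11 (limma, adjusted p = 0.0243).

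The ND arrays disagreed among themselves on the subunits. Set against the mean of the group means, the median gene of the 53 lay 0.12 above it in ND array 6 and 0.14 above in ND array 8, but at -0.23 in ND array 9. In these arrays 41, 44 and 11 of the 53 genes were above their mean. After quantile normalization the counts were 43, 47 and 19. ND array 9 also gave the highest of the 21 levels for 4 of the 53 genes (7.55%), against 13.3% of all genes. These were Atp5e at 7.10, Atp5k at 8.18, Atp5o at 5.74 and Ndufb10 at 6.48. ND array 9 had a mean macrophage list position of -0.38 and a mean adipocyte list position of -0.10. The part of either in the subunit values was not tested.

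**Figure D4:**
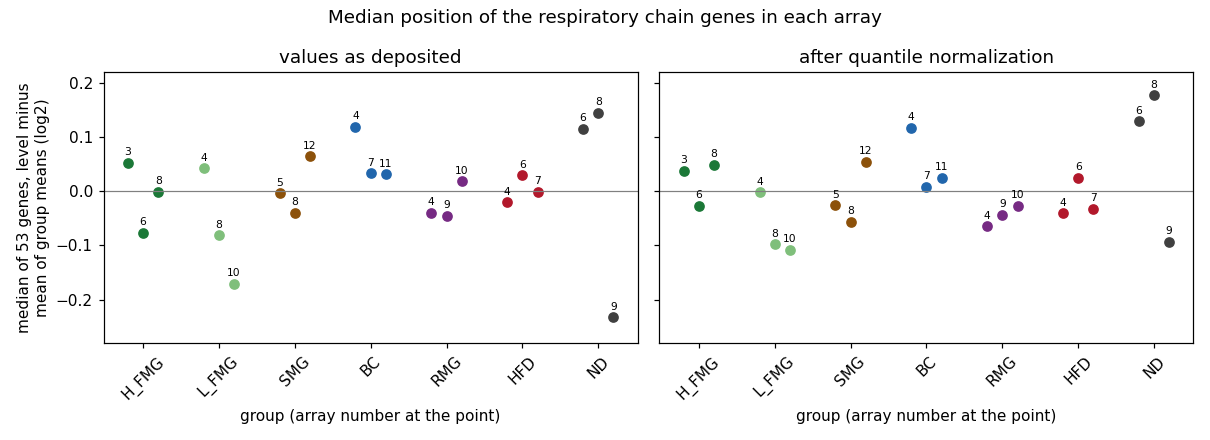
Median over the 53 genes of the level minus the mean of the group means (log2), for each array by group, as deposited and after quantile normalization. As deposited, ND array 8 lies highest and ND array 9 lowest.

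Without ND array 9, HFD against ND called 4 of 53 genes, against 8.38 percent of all genes. That array was picked for its low levels of these genes, so leaving it out tends to raise their ND means and favours falls. Ndufb3 was at 0.65, and 3 complex I subunits fell: Ndufb8, an accessory subunit, at -0.34 ± 0.09 (limma, adjusted p = 0.0186), Ndufv1 at -0.39 ± 0.11 (adjusted p = 0.0288) and Ndufs7, which carries the last iron-sulfur cluster before coenzyme Q, at -0.44 ± 0.13 (adjusted p = 0.0361). The median change was -0.12, with 9 of 53 estimates above 0. Atp5e, at -0.28, was no longer called (adjusted p = 0.19).

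The 6 high-fat groups against the other 2 ND arrays called 7 genes, against 8.73 percent of all genes. Ndufb3 rose, and Ndufb8, Ndufs7, Ndufv1, Ndufb9, Sdhb and Cyc1 fell. Ndufs7 had levels of 8.27 to 8.74 in the high-fat arrays, against 8.97, 8.75 and 8.08 in ND arrays 6, 8 and 9. Ndufv1 had 7.21 to 7.71 in the high-fat arrays, against 7.74, 7.87 and 7.29 in ND. Ndufb8 had 5.44 to 5.92 in the high-fat arrays, against 5.92, 5.98 and 5.33 in ND. All 3 genes thus had ND array 9 below the other ND arrays. The median change over the 53 genes was -0.13.

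**Figure D5:**
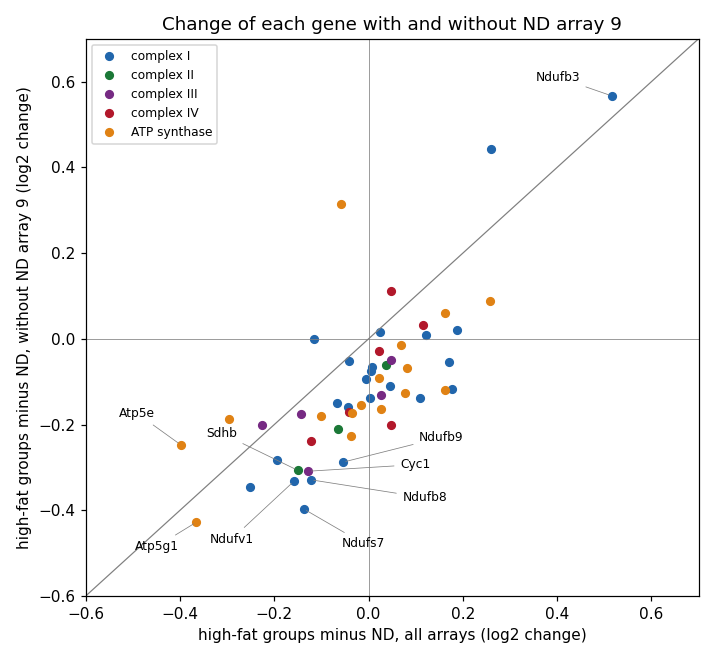
Change of each of the 53 genes (mean of the 6 high-fat groups minus ND, log2) with all arrays on the x axis and without ND array 9 on the y axis, coloured by complex. The line marks equal values, most points lie below it, and genes called on either axis are named.

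No subunit passed the test in any comparison between high-fat groups (limma, Benjamini-Hochberg adjusted). All genes gave 0 percent called in these comparisons, apart from H_FMG against HFD, with 0.00615 percent, a single gene. That count was 257 without H_FMG array 3 and 566 with array weights, and the count for the trend over fermented grain was 89 and 222, with 0 of the 53 subunits among them in each case. The 5 comparisons with HFD use 1 set of HFD arrays.

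H_FMG against HFD had 1 subunit at an unadjusted p under 0.05, against 14.5 percent of all genes, and a median change of 0.0017, or -0.0342 without H_FMG array 3. The median was 0.0359 after quantile normalization, with 38 estimates above 0, against -0.00324 over all genes. With median-centred arrays it was -0.0584, with 15 above 0, against -0.0432 over all genes. Ndufv2 had levels of 7.29, 7.28 and 7.22 in H_FMG, against 7.43, 7.52 and 7.59 in HFD. The arrays did not overlap, and the change was -0.25 ± 0.11 (limma, adjusted p = 0.31). Atp5mpl, a small proteolipid of ATP synthase, was at -0.30 ± 0.14, Ndufb10 at 0.19 ± 0.13 and Ndufs5 at 0.24 ± 0.16.

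L_FMG against HFD had 2 such subunits, against 8.66 percent of all genes, and a median of -0.05, or -0.0141 without L_FMG array 10. Ndufs8, an iron-sulfur subunit of complex I, had levels of 7.50, 7.40 and 6.99 in L_FMG, against 7.63, 7.98 and 7.69 in HFD. Every L_FMG array was below every HFD array, and the change was -0.47 ± 0.19 (limma, adjusted p = 0.524). Ndufv2 was at -0.24 ± 0.11, Ndufa6 at 0.17 ± 0.09 and Ndufb10 at 0.18 ± 0.13.

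SMG against HFD had 0 such subunits, against 1.85 percent, and RMG against HFD 0, against 2.82 percent. Uqcr11 was at 0.22 ± 0.14 and Cox5b at -0.13 ± 0.13 in SMG, where the other Cox5b probe gave 0.21. Atp5o, a stalk subunit, was at 0.32 ± 0.26 in SMG and 0.39 ± 0.26 in RMG, where Atp5k was at -0.25 ± 0.14, Ndufb8 at -0.16 ± 0.12 and Cox7b2 at 0.19 ± 0.15. Atp5c1, the gamma subunit, was at -0.10 ± 0.11 in SMG. The medians were 0.0079 in SMG and -0.03 in RMG.

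BC against HFD gave 39 of 53 estimates above 0 and a median of 0.06, against 0.01 over all genes. Without BC array 4 the median was 0.0331, and without HFD array 4 it was 0.0351. With median-centred arrays it was 0.00521, with 27 estimates above 0, against -0.0467 over all genes. After quantile normalization it was 0.0774, with 42 above 0, against -0.00262 over all genes. A single subunit had an unadjusted p under 0.05, against 5.18 percent of all genes. Atp5g1 had levels of 4.15, 4.25 and 4.26 in BC, against 3.84, 3.98 and 3.77 in HFD. The arrays did not overlap, and the change was 0.36 ± 0.15 (limma, adjusted p = 0.917). Ndufa6, a complex I accessory subunit, was at 0.18 ± 0.09, and the smallest p among negative estimates were those of Atp5mpl at -0.15 ± 0.14 and Ndufv2 at -0.10 ± 0.11. In all, 9 genes had all BC arrays above all HFD arrays (17%), against 7.11 percent of all genes, and 0 had them below, against 7.35 percent.

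L_FMG against BC asked about the grain and the bacterium at the same 0.3%. Of 53 estimates 46 were below 0, with a median of -0.11, against -0.01 over all genes. In all, 6 genes (11.3%) had an unadjusted p under 0.05, against 4.1 percent, and 11 had all L_FMG arrays below all BC arrays (20.8%), against 4.49 percent of all genes. Atp5g1 had levels of 3.80, 3.48 and 4.11 in L_FMG, against 4.15, 4.25 and 4.26 in BC. The change was -0.42 ± 0.15 (limma, adjusted p = 0.999), and Cox5b was at -0.29 ± 0.13, or 0.06 with its other probe. Above 0, Uqcrq was at 0.11 ± 0.11 and Ndufs5 at 0.15 ± 0.16. The median change was -0.0476 without L_FMG array 10 and -0.183 without L_FMG array 4. L_FMG array 10 gave the lowest of the 21 levels for 9 of the 53 genes (17%), against 5.22% of all genes.

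H_FMG against L_FMG had 0 subunits at an unadjusted p under 0.05, against 3.91 percent, with a median of 0.05 and 34 of 53 estimates above 0. Without L_FMG array 10 the median was -0.0176, with 22 above 0. Atp5g1 was at 0.25 ± 0.15, Atp5j2 at 0.33 ± 0.20, Ndufa6 at -0.17 ± 0.09 and Atp5j at -0.10 ± 0.11. L_FMG against SMG, fermented against steamed grain at the same 0.3%, had 1, against 5.45 percent, with a median of -0.08. The median was -0.0195 without L_FMG array 10 and -0.134 without L_FMG array 4. Ndufa8 was at -0.22 ± 0.10, Ndufs8 at -0.40 ± 0.19, Ndufa6 at 0.18 ± 0.09 and Atp5e at 0.17 ± 0.13. The trend over 0, 0.3 and 0.9% fermented grain had 0, against 13 percent of all genes, and a median of 0.01, or -0.0342 without H_FMG array 3. The trend median was 0.0511 after quantile normalization, with 39 estimates above 0, against -0.00326 over all genes. With median-centred arrays it was -0.0447, with 14 above 0, against -0.0427 over all genes. Ndufv2 was at -0.24 ± 0.12 and Atp5mpl at -0.29 ± 0.16 per percent of grain, with Atp5g1 at 0.23 ± 0.16 and Ndufs5 at 0.24 ± 0.17. Over the comparisons between high-fat groups, the 95% intervals lay inside ±0.25 for 2 to 6 of the 53 genes and inside ±0.5 for 40 to 50. They lay inside ±1 for all 53 in each.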

How the data were processed

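GeneChip whole-transcript arrays measured RNA of epididymal fat in 21 samples. The deposited values are log2 levels, 1 per probe and array; the authors' summarisation, normalization and log base were not given in the sources used here, and the base was taken from the range, 0.844 to 12.7. Arrays give no counts, so their number limits the precision. The table had 24292 rows, 24291 of them complete. Probe names came from the platform annotation: 17067 had 1 symbol, 1139 several and 6085 none. For each gene the brightest probe by mean was used, giving 16248 genes. The brightest probes of Atp5g2, Atp5h and Cox5b lie among probes of another chromosome, with mean levels of 9.56, 9.70 and 8.07. Their other probes, among those of the gene's own chromosome, had 8.91, 4.08 and 3.20. Whether the brightest probes detect these genes or pseudogenes was not tested. The other probes were an alternative chosen after seeing the data, as were the L_FMG mean without array 10 and the focus on ND array 9 among the arrays left out.

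No further normalization was applied. Each gene was fitted with limma 3.58.1 (R 4.3.3), with 1 coefficient per group over 21 arrays and moderation with an intensity trend. Tests were two-sided, with Benjamini-Hochberg adjustment over all genes and a threshold of 0.05. The fit was tested on simulated data. Tables and plots used Python 3.11.15, pandas 2.3.3, numpy 2.4.6 and matplotlib 3.10.9. Batches could not be checked, as no source used here names one. Alternatives were quantile normalization, median-centred arrays, no trend, array weights, compared groups only, every probe, the mean of a gene's probes, dim genes left out, the replicate number as a block, and each array left out.

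The members and lists were chosen with earlier results of these data known. Named genes were those past the threshold, otherwise up to 2 per direction with the smallest p, the brightest and dimmest of each complex, fixed core subunits and the subunit c genes; list genes were those past the threshold, up to 3 per list. Genes called only without ND array 9, Ndufv2, Uqcr11, Atp5k and Ndufs5 in HFD against ND, and Atp5o, Atp5k and Ndufb10 in ND array 9 were named after their values were seen. Mitochondrially encoded genes were not analysed here.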

Additional observations from a re-analysis of the deposited data

How the results depend on the processing

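The HFD against ND results depended on the settings. Array weights called 7 of the 53 genes, testing every probe 1, and the compared groups only 0. The median change was -0.105 after quantile normalization, 0.104 with median-centred arrays and -0.107 with array weights. Median-centring moved the median of all genes by 0.105. The high-fat groups against ND called 10 genes with array weights, with a median of -0.114. The test over 7 groups called 1 gene with median-centred arrays, 5 with array weights and 1 with dim genes left out.

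The labels state no pairing by replicate number. In deviations from the group means, 18 same-numbered pairs of arrays from different groups had correlations of -0.302 to 0.178. The 171 pairs with other numbers had -0.35 to 0.401. With the number as a block, HFD against ND and the high-fat groups against ND called 0 of the 53 genes and the 7 groups 1. The median change with the block was 0.088 in RMG against HFD, -0.108 in SMG against HFD, -0.0558 in H_FMG against L_FMG, 0.0485 in L_FMG against SMG and -0.105 for the trend.

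Leaving out 1 array gave 0 to 4 genes called and medians of -0.115 to 0.0341 in HFD against ND, 1 to 7 genes and -0.13 to 0.0461 in the high-fat groups against ND, and 0 to 1 gene over the 7 groups. The lowest count, 0, came without HFD array 6, and also without HFD array 7. All genes called in HFD against ND numbered 368 to 1457 with 1 array left out, 2432 with array weights, 524 with the block and 774 with the compared groups only.

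Ndufb3 in HFD against ND lost its call under quantile normalization (limma, adjusted p = 0.0646), the block (0.226), the compared groups only (0.0504) and on leaving out ND array 8 (0.0636), HFD array 6 (0.0731) or HFD array 7 (0.0822). Atp5e lost its call with median-centred arrays (0.128), no trend (0.058), every probe (0.0593), the block (0.199), the compared groups only (0.129) and without any 1 of 5 of the 6 arrays. Atp5g1 in the high-fat groups against ND lost its call under quantile normalization (0.121), median-centring (0.09), every probe (0.0553), the block (0.0894) and without any 1 of 14 of the 21 arrays (0.0515 to 0.148). With the block, Ndufb3 (0.0838) and Atp5e (0.0527) lost theirs in that comparison.

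Signs turned for genes near 0 in HFD against ND. Ndufs1 was -0.0223 after quantile normalization and -0.00869 with array weights. Uqcrfs1 was -0.00788 and -0.107 under these, and Atp5g3 was -0.0907, -0.0586 and, with the block, -0.0174. Cox5b was 0.0604 with median-centred arrays, 0.0681 with its own-chromosome probe and 0.0118 with the mean of its probes. Atp5b was 0.0394 with median-centred arrays. In SMG against HFD, Atp5o was -0.0402 with the block and Cox5b 0.213 and 0.0394 with the other probe and the mean, and in L_FMG against BC Cox5b was 0.0575 with the other probe. With 1 array left out, Ndufs1 ran from -0.0362 to 0.179, Sdha from -0.254 to 0.00233, Uqcrfs1 from -0.111 to 0.185, Cox5b from -0.161 to 0.0553, Atp5b from -0.254 to 0.0329 and Atp5g3 from -0.0688 to 0.143, and Ndufs5 in L_FMG against BC from -0.0267 to 0.245. The cause was not tested.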
